A study of Drosophila melanogaster with 15 samples.

Results

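Acetylation peaks on the fourth chromosome of Drosophila melanogaster were described for 2 histone marks, H3K9Ac and H4K16Ac, which are acetylated lysines of histones H3 and H4. Members were chosen by position alone. Every peak on chromosome 4 in the table of each mark was set to a window of 400 bp around its center, and windows that overlapped were joined into a locus. This gave 119 of 6350 H3K9Ac loci, made from 541 of 23378 peaks, and 75 of 8075 H4K16Ac loci, made from 198 of 24152 peaks. The remaining 6231 and 8000 loci lay on the other 5 arms (2L, 2R, 3L, 3R and X). All positions are in the dm3 build.

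The chromatin came from nuclei of the mushroom body (MB), the brain structure where olfactory memory is stored. The nuclei were pulled down from adult heads by FLAG-KASH, a tagged domain that sits in the nuclear membrane, which was expressed from an MBp-LexA driver that labels the α/β and γ lobes strongly and the α′/β′ lobe weakly. The strain was CS10, named w(CS10) in the methods, males and females were pooled, and naive flies were set against flies 1 day after spaced training, in which odor and shock are paired repeatedly with rest in between. Each mark had 3 libraries from naive and 3 from spaced-trained flies, CREB and CRTC had 1 library each from trained flies, and 1 library was input DNA from naive flies, 15 in all.

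Chromosome 4, the dot chromosome, is the smallest autosome of the fly. Repeats and heterochromatin proteins such as HP1 are spread among its genes, and many of those genes are nevertheless active and are bound by a protein of their own, POF. H3K9Ac marks promoters and other active elements and occupies the same lysine that is methylated in heterochromatin. H4K16Ac is the mark laid down by MOF, which is best known for dosage compensation of the male X chromosome. CREB is a DNA-binding activator needed for long-term memory, and CRTC is its coactivator.

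The peak tables give no counts per library and name no library. Each is built of 3 successive genome-wide runs of peaks, so values are given below for run 1, run 2 and run 3 in the order of the table, and the runs could not be tied to naive or trained flies. Library depth was not taken into account, since no run could be tied to a library. Of 9 MB marker genes, 7 carried an H3K9Ac peak (not rut and dnc) and 7 an H4K16Ac peak (not dac and Dop1R1). Of all protein-coding genes on the other arms, 35.3% carried H3K9Ac and 41.2% H4K16Ac. Of 13 markers of glia, photoreceptors, muscle, fat body and blood, 0 carried H3K9Ac and 2 carried H4K16Ac (moody, a glial gene, and ninaE, which encodes a rhodopsin). The glial determinant repo had neither mark. The eye and MB genes ey and toy are themselves members here.

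Chromosome 4 was densely covered by H3K9Ac and ordinarily covered by H4K16Ac. H3K9Ac loci numbered 101.5 per Mb (exact Poisson 95% interval 84.05 to 121.4) over the 1.173 Mb between the first and last peak. The other arms had between 36.37 per Mb on X and 65.09 per Mb on 2R. The ratio to the pooled other arms was 1.94 (95% interval 1.60 to 2.32). For H4K16Ac the density was 63.95 per Mb (50.30 to 80.16), inside the range of the other arms, which ran from 57.27 on 2L to 78.14 on X, and the ratio was 0.9504 (0.748 to 1.19).

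**Figure D1:**
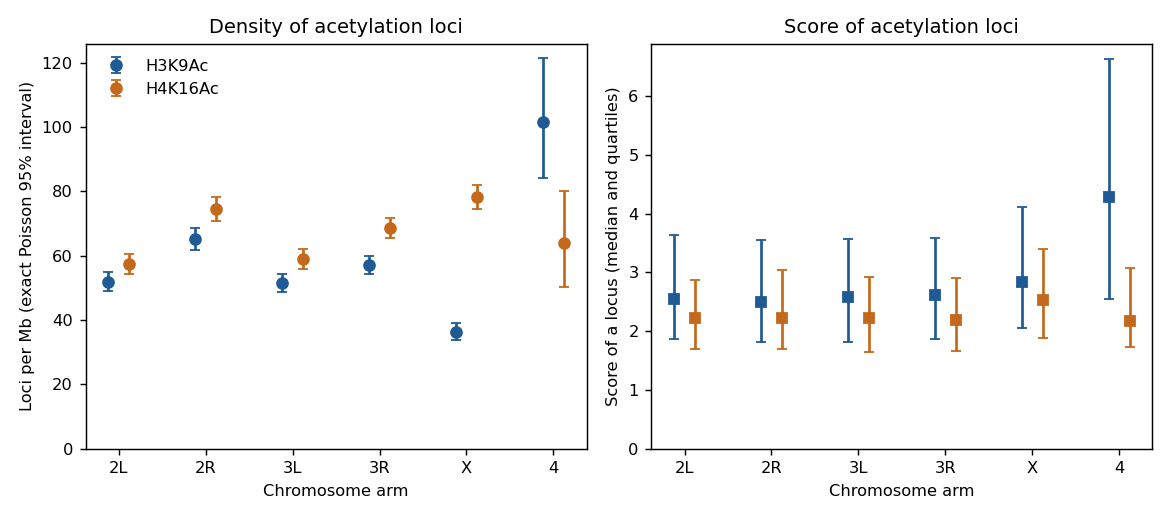
Acetylation loci by chromosome arm for H3K9Ac (blue) and H4K16Ac (orange). The left panel gives loci per Mb with exact Poisson 95% intervals, and the right panel gives the median Score of a locus with its quartiles. For H3K9Ac, chromosome 4 stands at 101.5 loci per Mb and a median Score of 4.29, above every other arm in both panels, whereas for H4K16Ac it lies within the range of the other arms in density and just under their medians in Score.

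The difference in density was seen in each of the 3 runs. H3K9Ac peaks on chromosome 4 numbered 150.1, 141.5 and 169.7 per Mb in runs 1, 2 and 3, against 60.51, 59.42 and 72.14 per Mb on the other arms. H4K16Ac peaks numbered 50.30, 69.06 and 49.45 per Mb, against 62.10, 76.86 and 62.50. The lowest H3K9Ac run on chromosome 4 was thus above the highest run elsewhere, while every H4K16Ac run was below its counterpart. As a share of all loci, chromosome 4 held 1.87% for H3K9Ac and 0.929% for H4K16Ac, and the odds ratio was 2.04 (1.52 to 2.72; p = 1.252e-06 by a two-sided Fisher's exact test). The intervals and tests over loci cover counting error only, since neighbouring loci are not independent and are not replicates of an arm.

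H3K9Ac loci on chromosome 4 were also longer and closer together. Their median length was 705 bp, against 557 bp elsewhere, and 28 of them (23.5%) reached 1000 bp, against 12.6%. They covered 92.19 kb, or 7.86% of the span, where the other arms had 2.36% to 4.22% covered. The median distance between neighbours was 1.69 kb, against 3.83 to 6.42 kb on the other arms. H4K16Ac loci had a median length of 415 bp against 462 bp, covered 3.46% of the span against 3.31% to 4.99%, and lay a median of 7.28 kb apart against 1.58 to 3.24 kb.

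At the level of genes the coverage was broad. RefSeq (Release 6) places 80 protein-coding genes on chromosome 4. Of these, 66 (82.5%, Wilson 95% interval 72.7 to 89.3) were the named gene of an H3K9Ac peak. The other arms had 30.5% to 37.2%. For H4K16Ac the count was 47 of 80, or 58.8%, against 36.8% to 47.8%. Both marks were present at 46 genes, H3K9Ac alone at 20, and H4K16Ac alone at 1, fuss, which encodes a corepressor of the Ski/Sno family. The 20 genes with H3K9Ac alone included Ephrin and its receptor Eph, the TGF-beta ligand gene myo, the Polycomb recruiter pho and Cadps, which acts in dense-core vesicle release. Peaks carry the gene names of the dm3 annotation, so a newer or neighbouring gene can count as unmarked because no peak was named for it. At 13 genes neither mark was listed. These were JYalpha, CG32006, CG1674, dpr7, Gat, Ekar, CG46466, bt, fd102C, mGluR, apolpp, sv and CG33521, among them the transporter gene for GABA (Gat), a metabotropic glutamate receptor (mGluR) and the titin-like muscle gene bt.

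H3K9Ac loci of chromosome 4 scored high. The Score is the peak caller's measure of enrichment over input, and a locus takes the highest Score of its peaks. The median was 4.29 (quartiles 2.55 and 6.64) on chromosome 4, and between 2.50 and 2.84 on the other arms. A Score at or above the median of all loci, 2.63, was found in 88 of 119 loci (73.9%) and in 49.6% of the loci elsewhere. The odds ratio was 2.89, with a 95% interval from 1.91 to 4.36 (adjusted p = 7.717e-07 over 12 tests, two-sided Fisher's exact test). Over single peaks the median Score was 3.24, 3.50 and 2.87 in runs 1, 2 and 3, against 2.17, 2.14 and 2.06, so that the groups of runs did not overlap. Of the 100 H3K9Ac loci with the highest Score in the genome, 17 lay on chromosome 4.

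For H4K16Ac the Score did not set chromosome 4 apart. The median was 2.18 (quartiles 1.73 and 3.08), beside 2.19 to 2.54 on the other arms, and 33 of 75 loci (44%) reached the median of all loci against 50.1% elsewhere (odds ratio 0.783, adjusted p = 0.2995, Fisher's exact test). The medians over peaks were 1.84, 1.96 and 2.00 in the 3 runs, against 1.93, 1.85 and 1.91, and these ranges overlap. Of the 100 highest H4K16Ac loci, 1 was on chromosome 4.

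The excess in H3K9Ac Score was found in every class of loci that was compared, although its size moved with length. Introns had a median Score of 4.32 on chromosome 4 and 2.61 elsewhere, 5′UTR loci 5.85 and 2.59, and upstream loci 3.02 and 2.61. Loci with a peak within 500 bp of a transcription start site (TSS) had medians of 5.19 and 2.71, and loci farther away 3.13 and 2.33. Loci of 1000 bp or longer had medians of 6.56 and 3.66, but loci shorter than 600 bp had 2.41 and 2.16. Among those short loci 47.9% on chromosome 4 and 34.6% elsewhere reached the median of all loci, which did not pass the test (odds ratio 1.74, adjusted p = 0.0997, Fisher's exact test). Because a locus of many peaks has more chances of a high Score, length and Score are linked by construction.

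The highest H3K9Ac Score in the genome was at PIP4K, which encodes a phosphatidylinositol phosphate kinase. Its locus (chr4:1216894-1217557, in an intron near a TSS) scored 30.56, 36.31 and 41.27 in the 3 runs. The next was Ank, encoding ankyrin, an adaptor between membrane proteins and the spectrin skeleton (chr4:148872-150721), with 15.16, 31.81 and 35.99. The highest H3K9Ac locus of any other arm scored 27.32. In both genes all 3 runs were above 15, and run 1 was the lowest.

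Below these, 5 further loci with values in every run stood out. CG31998 (chr4:225536-226601) scored 16.71, 5.91 and 12.95, and myo (chr4:715922-716897) scored 5.15, 12.71 and 16.55. Both genes varied widely between runs, so their rank is loosely fixed. The locus of 4E-T, which encodes a binding partner of the cap-binding protein eIF4E (chr4:978135-979090), scored 12.77, 11.41 and 8.10. Ephrin (chr4:592363-593168) was the steadiest, with 10.30, 12.24 and 10.39. CaMKII, the calcium/calmodulin-dependent kinase with a known role in memory (chr4:1073548-1075013), scored 9.44, 12.22 and 7.70.

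The other 3 loci of the highest group lacked a peak in run 1. Mitf, a regulator of lysosomal genes (chr4:1219134-1220267), scored 12.68 and 12.86 in runs 2 and 3. CG32017 (chr4:1166529-1167218) scored 11.07 and 12.10. An intronic locus of pan, the transcription factor at the end of the Wnt pathway (chr4:111160-112321), scored 10.84 and 4.81, so that its place rests on run 2.

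**Figure D2:**
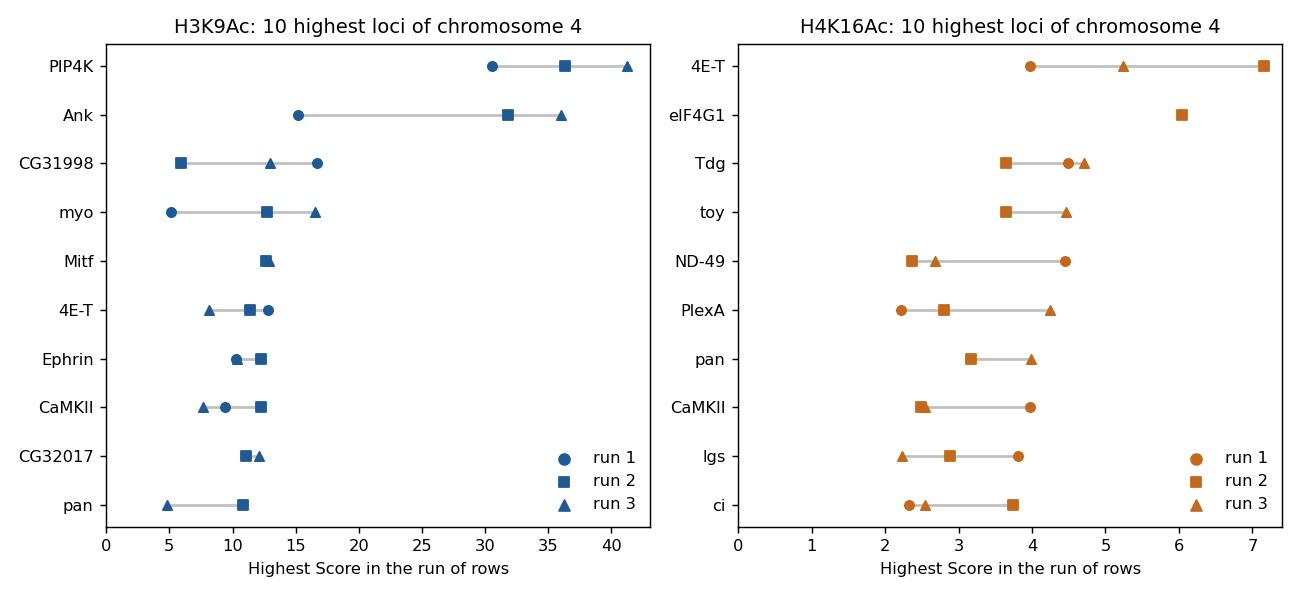
Score in each run of peaks (circle, run 1, square, run 2, triangle, run 3) for the 10 chromosome 4 loci with the highest Score, H3K9Ac on the left and H4K16Ac on the right, with a grey line from the lowest to the highest run. PIP4K and Ank lie apart from the other H3K9Ac loci in runs 2 and 3, whereas the H4K16Ac loci run together on a scale that ends near 7.

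The longest H3K9Ac locus lay in ey, a Pax6 gene of eye and MB development. It was 2749 bp long (chr4:726444-729193), was made of 18 peaks and scored 7.47, 2.49 and 6.44. The next in length was 2201 bp in anne, which encodes a P-type ATPase and is named CG32000 in the table (chr4:152138-154339, Score 10.39, 10.49 and 7.49). The Ank locus, at 1849 bp, came after them. The spread between runs was wide in ey and in Ank and narrow in anne.

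H4K16Ac had its highest locus upstream of 4E-T. That locus (chr4:980376-980822) scored 3.97, 7.16 and 5.24 and ranked 40 among all H4K16Ac loci. The locus upstream of eIF4G1, a translation initiation factor (chr4:951731-952131), scored 6.04 but had a peak in run 2 only. Tdg, encoding a thymine DNA glycosylase (chr4:577299-578410), scored 4.49, 3.65 and 4.71. An upstream locus of toy, the other Pax6 gene (chr4:1005324-1006342), scored 3.65 and 4.46 in runs 2 and 3.

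The remaining H4K16Ac loci of that group were close to each other. ND-49, a subunit of mitochondrial complex I, scored 4.44, 2.36 and 2.68. The locus between PlexA, a semaphorin receptor, and its neighbour Mpv17 scored 2.22, 2.81 and 4.25 and was the longest H4K16Ac locus, at 1753 bp (chr4:1048264-1050017). Loci of toy (1311 bp) and ey (1245 bp) came next in length. An exonic locus of pan scored 3.17 and 3.98 in runs 2 and 3, CaMKII scored 3.97, 2.49 and 2.55, and the Wnt coactivator gene lgs scored 3.81, 2.88 and 2.23. The locus upstream of ci, the transcription factor of the Hedgehog pathway, scored 2.33, 3.74 and 2.55. The differences among these loci were no larger than the spread between their runs.

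Genes were then read by role, in 4 lists of chromosome 4 genes, against shares of 82.5% (H3K9Ac) and 58.8% (H4K16Ac) over all 80 genes. No list was tested against these shares. Of 17 neuronal and signalling genes, 15 had an H3K9Ac peak, with a median over genes of the highest Score of 8.45, and 11 had an H4K16Ac peak, with a median of 2.21. Gat and mGluR had neither. The synaptic genes were even across runs. unc-13, which primes synaptic vesicles, scored 8.45, 8.15 and 8.31 for H3K9Ac and 3.33, 2.59 and 3.02 for H4K16Ac. Syt7, a synaptotagmin, scored 7.55, 8.50 and 8.18 for H3K9Ac and 2.99 for H4K16Ac in run 2 only. Cadps scored 7.14, 9.16 and 7.03 for H3K9Ac and had no H4K16Ac.

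Guidance receptors of this list were acetylated at H3K9 throughout. PlexB scored 8.47, 8.01 and 7.63, PlexA 6.29, 7.41 and 6.14, and Eph 6.52, 7.11 and 6.08. For H4K16Ac, PlexB reached 1.85 and 1.63 in runs 1 and 2, and Eph was not listed. Pur-alpha, which encodes a nucleic acid-binding protein, scored 7.09, 9.22 and 8.58 for H3K9Ac and 3.36, 3.02 and 2.44 for H4K16Ac. Lower in the list were the calcium pump gene PMCA (4.71, 5.19 and 4.54), CaMKI (5.08, 4.84 and 4.69), the adaptor gene Crk (5.15, 4.86 and 5.13), the tau-tubulin kinase gene Asator (4.08, 5.01 and 6.12) and the zyxin gene Zyx (3.58, 1.68 and 2.94), all for H3K9Ac.

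Of 14 genes for transcription factors and chromatin proteins, 12 had H3K9Ac (median 4.59) and 8 had H4K16Ac (median 3.25). The Pax gene sv and the forkhead gene fd102C had neither. toy had the most H4K16Ac peaks of any gene of the chromosome, 18, with Scores of 3.49, 3.65 and 4.46, beside H3K9Ac Scores of 4.71, 3.85 and 4.41. In ci the levels were 3.15, 3.05 and 3.44 for H3K9Ac and 2.69, 3.74 and 2.55 for H4K16Ac, and in lgs H3K9Ac scored 4.96, 5.33 and 5.85. The genes pho (6.78, 5.88 and 4.36), Hcf, a host cell factor homologue (4.46, 4.15 and 4.11), and onecut (3.09, 2.94 and 1.58) had H3K9Ac alone. By their highest Score, the lowest H3K9Ac genes of the list were zfh2, a zinc finger and homeodomain factor (1.91 and 1.75 in runs 1 and 3), Sox102F (2.33, 2.49 and 2.52) and dati (2.42 and 2.91 in runs 2 and 3).

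All 6 housekeeping genes of the list had both marks, with medians of 4.75 for H3K9Ac and 3.14 for H4K16Ac. The ribosomal gene RpS3A scored 7.28, 7.68 and 7.24 for H3K9Ac and 3.25, 3.29 and 3.19 for H4K16Ac. The microRNA silencing gene gw, encoding GW182, scored 4.42, 4.35 and 4.54 and 3.14, 3.29 and 3.10. The lowest H4K16Ac Score of the list was 0.454, at ATPsynbeta in run 1. Of the TGF-beta ligands, Actbeta scored 2.75, 1.96 and 2.48 for H3K9Ac and mav 3.06, 2.56 and 3.72, both far below myo, and bt of muscle had no peak of either mark. Beside these values per gene, the median Score per locus over the genome was 2.63 for H3K9Ac and 2.30 for H4K16Ac.

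**Figure D3:**
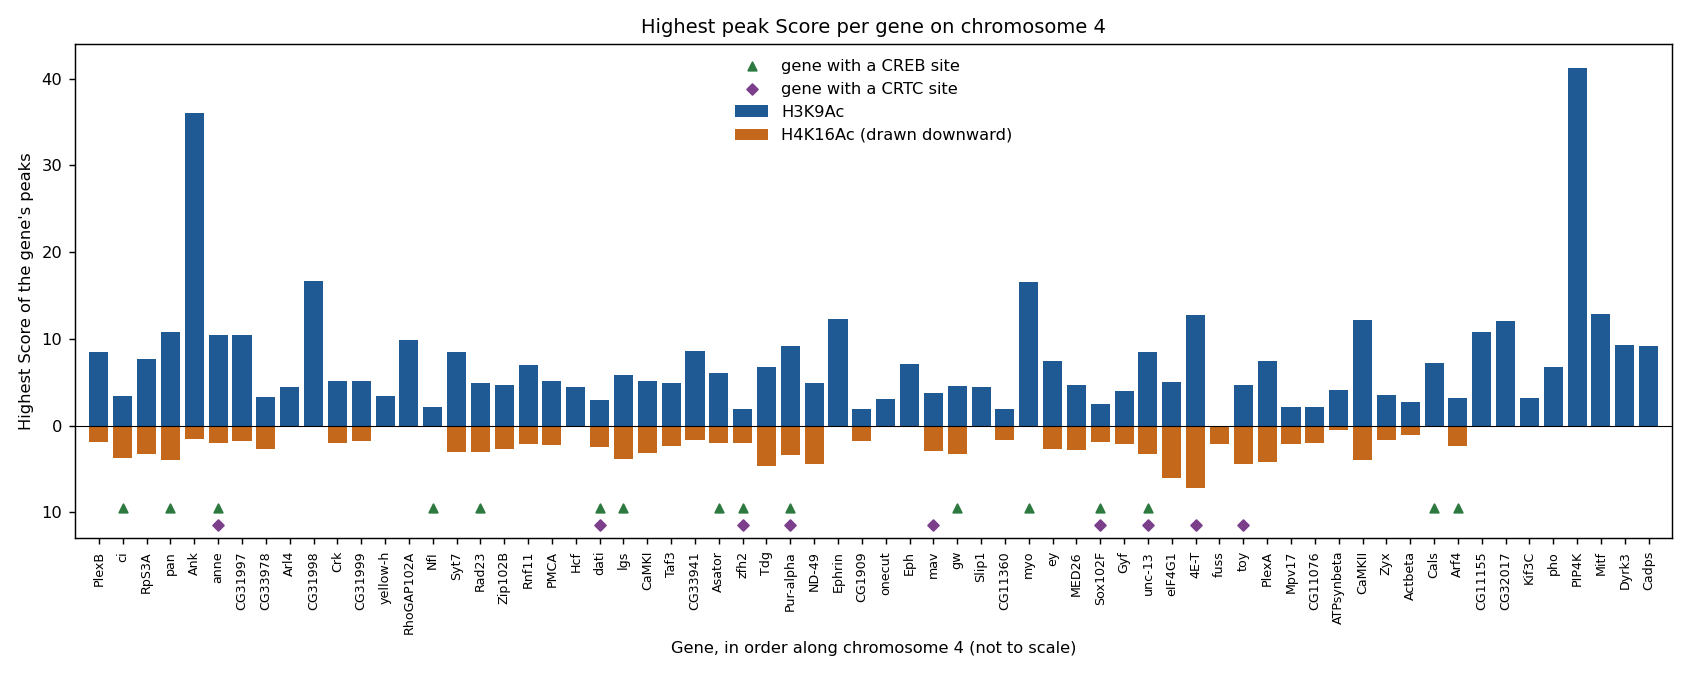
Highest Score of each gene's H3K9Ac peaks (blue, upward) and H4K16Ac peaks (orange, downward) for 66 genes of chromosome 4 with at least 1 locus, in their order along the chromosome. Green triangles mark genes with a CREB site and purple diamonds genes with a CRTC site. PIP4K and Ank reach 41.27 and 35.99 for H3K9Ac, and the last 8 genes on the right, from CG11155 to Cadps, have H3K9Ac only.

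The 2 marks met less often on chromosome 4 than elsewhere when counted over H3K9Ac loci. Of 119 H3K9Ac loci, 61 (51.3%) overlapped an H4K16Ac locus, against 79.4% on the other arms (odds ratio 0.274, 95% interval 0.190 to 0.394, adjusted p = 1.827e-10, two-sided Fisher's exact test). Counted over the smaller set of H4K16Ac loci, 58 of 75 (77.3%) overlapped H3K9Ac, against 62.9% (odds ratio 2.02, 1.17 to 3.47, adjusted p = 0.019, Fisher's exact test). The 2 shares read the same overlaps over unequal totals. Chromosome 4 had fewer H4K16Ac loci (75) than H3K9Ac loci (119), and the other arms had more (8000 and 6231). Both shares depend on these totals, so neither test separates overlap from the difference in numbers of loci. The second of them did not pass the test without run 1 (odds ratio 1.33, adjusted p = 0.375, Fisher's exact test) or without run 2 (1.89, adjusted p = 0.0718), nor without the X among the other arms (1.55, adjusted p = 0.158), whereas the first passed in all of these.

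Within each class of H3K9Ac Score, fewer loci overlapped H4K16Ac on chromosome 4 than elsewhere. This split leaves the unequal totals of loci in place. On the other arms 73.2% of loci under the median Score overlapped H4K16Ac, and this rose to 85.6% at or above the median and to 87.2% in the highest 10% of all loci. On chromosome 4 the shares were 45.2% (14 of 31 loci, Wilson 95% interval 29.2 to 62.2), 53.4% (47 of 88, 43.1 to 63.5) and 46.7% (21 of 45, 32.9 to 60.9). Of the 10 highest H3K9Ac loci, 3 overlapped H4K16Ac (Ank, 4E-T and CaMKII), while PIP4K, CG31998, myo, Mitf, Ephrin, CG32017 and pan did not. Whether the share moves with Score differently on chromosome 4 was not tested, and its intervals overlap between the classes.

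**Figure D4:**
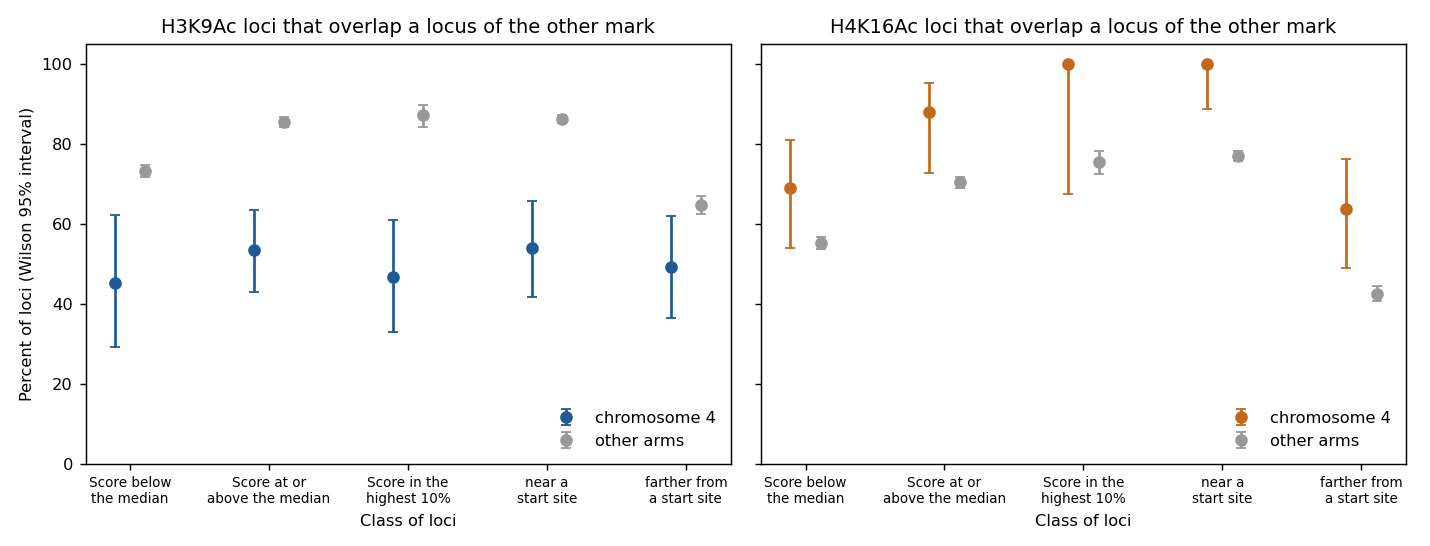
Percent of H3K9Ac loci (left) and H4K16Ac loci (right) that overlap a locus of the other mark, for chromosome 4 (colour) and the other arms (grey), in classes by Score and by distance to a start site, with Wilson 95% intervals. For H3K9Ac each chromosome 4 point lies under its grey partner, with 53.4% against 85.6% among loci at or above the median Score, and for H4K16Ac each lies above it.

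The end of the chromosome carried H3K9Ac without H4K16Ac. The last H4K16Ac locus lay at Arf4, a small GTPase gene, and ended at position 1145265. Over the following 91.13 kb there were 8 H3K9Ac loci and no H4K16Ac locus. They lay at CG11155, which encodes an ionotropic glutamate receptor subunit, CG32017, the kinesin gene Kif3C, pho, PIP4K, Mitf, the kinase gene Dyrk3 and Cadps, and scored between 3.21 and 41.27 with a median of 10.01. Of the 20 highest H3K9Ac loci of the chromosome, 6 were among these 8. This stretch was singled out after its values were seen. It is 1 of 3 stretches of 50 kb or more without H4K16Ac on chromosome 4, and the others held 4 H3K9Ac loci over 79.26 kb (at yellow-h, RhoGAP102A, NfI and Syt7) and 0 over 81.33 kb. The other arms had 585 such stretches with a median of 0 and at most 8 H3K9Ac loci in each, and 261 held at least 1. These stretches were not matched for length. In the end stretch H3K9Ac loci numbered 87.78 per Mb, beside 101.5 per Mb over all of chromosome 4.

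By the start site listed with each peak, loci of both marks lay near a TSS less often on chromosome 4. H3K9Ac loci lay in introns more often. Other start sites of a gene can lie closer, and shares by those were not tested. For H3K9Ac, 59 of 119 loci (49.6%) had their highest peak in an intron, against 32.8% (odds ratio 2.02, 1.40 to 2.90, adjusted p = 0.0009148, two-sided Fisher's exact test), and 63 (52.9%) had a peak within 500 bp of a TSS, against 68.9% (odds ratio 0.507, 0.352 to 0.730, adjusted p = 0.0009148). The shares in coding exons (6.72% against 16.1%) and in 5′UTRs (10.9% against 17.6%) were low, and the upstream share was 18.5% against 13.8%. For H4K16Ac, 30 of 75 loci (40%) lay in introns, against 30.5% (odds ratio 1.52, 0.953 to 2.41, adjusted p = 0.119, Fisher's exact test), and 30 (40%) near a TSS, against 60.5% (odds ratio 0.435, 0.273 to 0.691, adjusted p = 0.001186). Upstream regions held 32.0% of the H4K16Ac loci, against 17.0%. In loci with a peak in every run, the TSS difference passed for neither mark. The odds ratio was 0.6705 for H3K9Ac (adjusted p = 0.217) and 0.492 for H4K16Ac (adjusted p = 0.172, Fisher's exact test). The tables differ in peak width, with a median of 48 bp for H3K9Ac and 400 bp for H4K16Ac, so types are compared within a mark only.

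The genes with at least 5 H3K9Ac loci differed in placement. Of those in ey, all 5 were called intronic and 0 had a peak within 500 bp of a TSS. In toy 0 of 6 were near a TSS, in pan 2 of 6 and in unc-13 2 of 7. Each distance is to the start site listed with the peak. The CREB and CRTC lists give nearer start sites for some loci. A pan locus (chr4:110394-110845) was listed 20689 bp from its TSS but holds a CREB site listed at -361 bp. For H4K16Ac, 3 loci lay upstream of fuss and 2 upstream of toy, all farther than 500 bp from a TSS. All 30 H4K16Ac loci near a TSS overlapped H3K9Ac, and on the other arms 77.0% did.

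**Figure D5:**
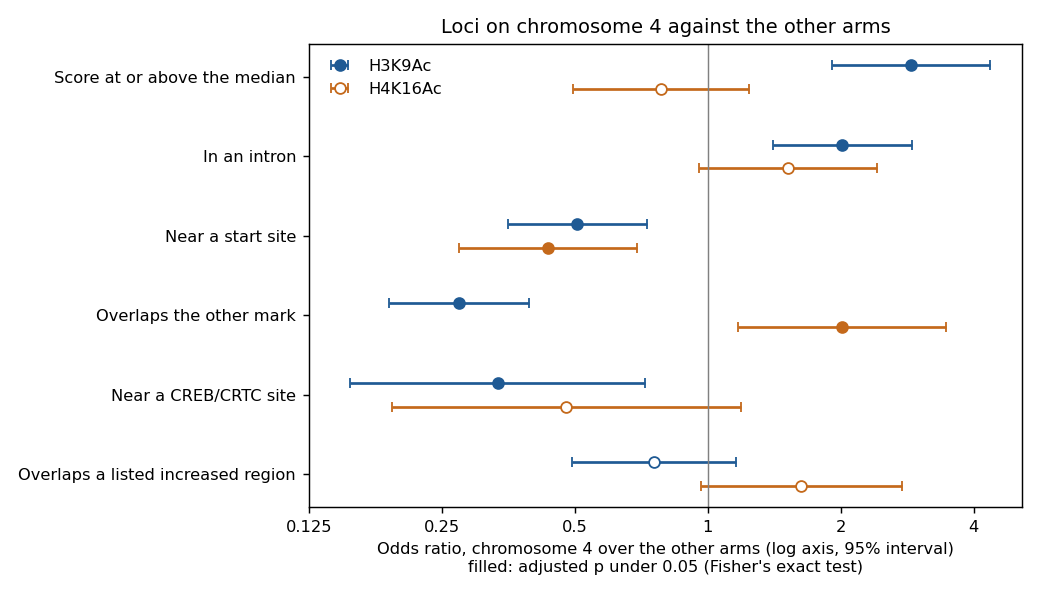
Odds ratios of chromosome 4 over the other arms, with 95% intervals on a log axis, for 6 properties of a locus in H3K9Ac (blue) and H4K16Ac (orange). Filled points passed Fisher's exact test after adjustment over 12 tests. H3K9Ac loci passed in 5 of 6 properties, with the highest odds ratio, 2.89, for Score, and H4K16Ac loci passed in 2.

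Per Mb, CREB and CRTC sites were fewer on chromosome 4 than on any other arm. For CREB the interval below reaches into the range of the other arms, and for CRTC it does not. Sites per gene were not compared. There were 30 CREB sites, or 25.58 per Mb (exact Poisson 95% interval 17.26 to 36.51), where the other arms had 34.45 to 45.92, and 14 CRTC sites, or 11.94 per Mb (6.53 to 20.03), where the other arms had 22.13 to 28.83. The strength of CREB sites, given as the enrichment factor over background, was ordinary, with a median of 6.35 against 6.16. For CRTC the median was 3.88 against 4.67. Each factor has 1 library in the labels, although the methods describe sites called across biological replicates, and the lists carry no value per replicate, so arms were not tested. The lists also hold fewer CRTC sites and fewer CRTC sites near CREB than the published text reports. The counts here therefore describe these lists only.

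The 2 factors met at few genes. CREB/CRTC sites, meaning CRTC sites that have a CREB site no more than 200 bp away, numbered 2390 in these lists. On chromosome 4 there were 9, in anne, at dati, at zfh2 (4 sites), at Pur-alpha, at Sox102F and at unc-13. Thus 9 of 14 CRTC sites (64.3%, Wilson 95% interval 38.8 to 83.7) had a CREB site near, against 79.7% elsewhere, and 10 of 30 CREB sites (33.3%, 19.2 to 51.2) had a CRTC site near, against 52.5%.

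The zfh2 gene held the largest group, with 7 CREB and 5 CRTC sites between chr4:522280-529355. The strongest pair lay just upstream of its TSS, with a CREB enrichment of 13.11 and a CRTC enrichment of 6.76. Further sites downstream of the TSS reached 9.04 for CREB and 7.19, 6.12 and 5.67 for CRTC. Acetylation there was weak, with an H3K9Ac locus of Score 1.91 and 1.75 (runs 1 and 3) at 119 bp from the upstream CRTC site and an H4K16Ac locus of Score 1.96 in run 2 among the downstream sites.

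The other strong sites differed in their distance to acetylation. The highest CREB enrichment, 13.50, was at chr4:437172-437256, assigned to dati (Lin29 in the list), with the nearest H3K9Ac locus 19142 bp and the nearest H4K16Ac locus 12201 bp away. A CREB site of 9.26 in sv was 17287 bp from H3K9Ac. By contrast, the CREB site of 10.76 in pan and the pair in anne, at 7.87 for CREB and 6.61 for CRTC, fell inside H3K9Ac loci. In all, 15 of 30 CREB sites (50%) lay in a locus of either mark, 12 in H3K9Ac and 8 in H4K16Ac, and on the other arms the share was 39.1%.

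Seen from the acetylation loci, CREB/CRTC sites were rare. Within 200 bp of such a site were 7 of 119 H3K9Ac loci (5.88%), against 15.7% elsewhere (odds ratio 0.334, 0.155 to 0.720, adjusted p = 0.0039, two-sided Fisher's exact test), and 5 of 75 H4K16Ac loci (6.67%), against 12.99% (odds ratio 0.479, 0.193 to 1.19, adjusted p = 0.143). The 7 H3K9Ac loci were those of anne, zfh2, Sox102F, a pair at Tdg and a pair at unc-13. The 5 H4K16Ac loci were those of zfh2, Tdg and Sox102F and a pair at unc-13. The site near the Tdg loci is the one listed for the neighbouring gene Pur-alpha. At unc-13 the site lay between loci scoring 2.36 and 2.69 (runs 1 and 2) and 3.13, 2.51 and 2.64 for H3K9Ac and overlapped a locus of 3.33, 2.59 and 3.02 for H4K16Ac. At Sox102F the H3K9Ac locus scored 1.78, 2.49 and 1.47, and the H4K16Ac locus 1.69 and 1.80 in runs 1 and 2.

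For regions listed as increased after spaced training, no difference between chromosome 4 and the other arms passed the test over loci, but some did under other settings. Over all loci, 28.9% of the H3K9Ac and 17.3% of the H4K16Ac loci overlapped a listed region. On chromosome 4 these were 28 of 119 H3K9Ac loci (23.5%), against 29.0% on the other arms (odds ratio 0.755, 95% interval 0.492 to 1.16, adjusted p = 0.241, two-sided Fisher's exact test), and 19 of 75 H4K16Ac loci (25.3%), against 17.2% (odds ratio 1.63, 0.965 to 2.75, adjusted p = 0.119). Over single peaks, which count the same place more than once, the share was lower for H3K9Ac (odds ratio 0.599, adjusted p = 1.653e-06) and higher for H4K16Ac (1.43, adjusted p = 0.0477), and with windows of 200 bp it was lower for H3K9Ac (0.599, adjusted p = 0.00732, all Fisher's exact test). The call of each region is that of the deposited lists, which hold 1889 and 1428 regions and could not be recomputed without counts. These lists are longer than the sets described as significant after adjustment in the published text, so a listed region is not one shown to pass an adjusted test.

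The 29 H3K9Ac regions named 25 genes. ey was listed 3 times and Syt7 and Eph 2 times each. Of the neuronal list, unc-13, Pur-alpha, Asator, Crk and Zyx were also named. pan, onecut and pho came from the transcription list, and Rad23, which acts in DNA repair, and Arf4 from the housekeeping list, while Actbeta and a region named for mir-954 in the mav locus stood for TGF-beta ligands. The others were Arl4, CG33941, CG1909, Slip1, CG11360, MED26 of the Mediator complex, Mpv17, CG11155, CG32017 and Dyrk3. Of the 10 H3K9Ac loci with the highest Score, 2 overlapped a listed region (CG32017 and pan), and those of PIP4K, Ank, CG31998, myo, Mitf, 4E-T, Ephrin and CaMKII did not.

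The 19 H4K16Ac regions named 17 genes, with pan and Pur-alpha listed 2 times each. The rest included anne, Sox102F, unc-13, Rad23, the zinc transporter gene Zip102B, the ubiquitin ligase gene Rnf11, CaMKI, CG33941, CG1909, MED26, toy, CG11076, CaMKII and Arf4. Both lists named 8 genes, which were pan, Rad23, CG33941, Pur-alpha, CG1909, MED26, unc-13 and Arf4. In 4 of them, CG33941, CG1909, MED26 and Arf4, the H3K9Ac and H4K16Ac regions overlapped. At Rad23 they were 187 bp apart, at Pur-alpha 838 bp, at unc-13 10702 bp and at pan 20725 bp. No count for the other arms is given beside these, so they are a listing only.

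Increased regions were then set against CREB/CRTC sites. Of the 29 H3K9Ac regions 0 came within 200 bp of such a site, against 10.7% of the listed regions on the other arms, and of the 19 H4K16Ac regions 2 did (10.5%, Wilson 95% interval 2.94 to 31.4), against 15.6%. For the 0 of 29 the interval reaches 11.7%. Both intervals thus take in the share on the other arms, and no test of these shares was run. Over all chromosome 4 loci, 5.88% for H3K9Ac and 6.67% for H4K16Ac lay within 200 bp of such a site. The 2 H4K16Ac regions were the Sox102F region, which overlapped its site (chr4:855042-855442), and a Pur-alpha region 53 bp from its site (chr4:578010-578410). The Pur-alpha region lies within the H4K16Ac locus named above for Tdg. The H4K16Ac region upstream of unc-13 was 231 bp from a site. The zfh2 group of sites had no listed region of either mark.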

How the data were processed

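Chromatin immunoprecipitation and sequencing had been done on mushroom body nuclei in 15 libraries. The authors aligned the reads to dm3, dropped alignments of poor mapping quality and called peaks by PICS and ERD with input DNA as the control, as their methods state. The authors deposited a peak table per mark with the PICS score, a false discovery rate (from 0 upward like a p-value, at most 0.02128 for H3K9Ac and 0.03226 for H4K16Ac) and a gene annotation. CREB and CRTC lists give an enrichment factor, a ratio of ChIP to background that the authors deposited. The deposited lists of increased regions also hold a mean fold (spaced over naive), its SD and a p-value, which were not used. Only their positions were.

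Peaks were set to 400 bp windows and joined per mark with Python 3.11.15 and pandas 2.3.3. A locus took the highest Score of its peaks and the annotation of that peak. It counted as near a TSS with a peak center within 500 bp of the start site listed for that peak. It counted as shared with an overlap of 1 bp, and as near a CREB/CRTC site within 200 bp. Shares on chromosome 4 and on the other 5 arms were compared with Fisher's exact test (SciPy 1.17.1, two-sided), adjusted over 12 tests by Benjamini-Hochberg with a threshold of 0.05. Shares have 95% Wilson intervals and densities exact Poisson intervals, for counting error only. The comparison of the marks' shares on chromosome 4 was added after the data were seen. No count test between naive and trained flies could be run, since the tables used hold no counts per library. Functions were tested on simulated data. Symbols were matched to RefSeq (Release 6), which also gave the numbers of genes per arm. No coordinates were taken from it, and sequences were not used here.

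Members and gene lists were chosen with earlier results of these data known. Genes are named where a locus is among the 10 highest or 3 longest of its mark, lies near a CREB/CRTC site or an increased region, holds one of the 5 strongest sites of a factor, or belongs to a list. The end of the chromosome and genes without peaks were added after their values were seen. A gene with loci is not reported here by name.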

Additional observations from a re-analysis of the deposited data

How the results depend on the processing

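Of 176 values recomputed for 14 results under 19 settings, 150 were counted as unchanged. For odds ratios this meant the same direction and the same side of the threshold. Density ratios were not tested, and for them it meant a value inside the Poisson interval of the reported ratio. The H4K16Ac density ratio, 0.9504 as reported, thus counted as unchanged although it turned upward with windows of 800 bp (1.059) and without run 3 (1.02). Values below are odds ratios unless named as a density ratio, and the cause of each shift was not tested. The overlap of H4K16Ac loci with H3K9Ac lost its call most often: 1.243 over single peaks, 1.497 and 2.042 with windows of 200 and 800 bp, 1.587 at a false discovery rate of at most 0.01, 1.61 with an overlap of at least 200 bp, 1.549 without X, 1.33 without run 1, 1.893 without run 2 and 1.295 in loci with a peak in every run. The TSS share lost its call for H4K16Ac within 1000 bp (0.6119) and in loci with a peak in every run (0.492), and in the latter for H3K9Ac too (0.6705). The H4K16Ac Score turned upward, without a call, over single peaks (1.125), with the median Score of a locus (1.144) and near a TSS only (1.102). Increased H3K9Ac regions became a call over single peaks (0.5985) and with 200 bp windows (0.5986), and turned to 1.083 in loci shorter than 600 bp. Increased H4K16Ac regions became a call over single peaks (1.431) and in loci shorter than 600 bp (2.161). In those short loci the H3K9Ac Score (1.736), intron (1.81) and CREB/CRTC (0.4624) calls were lost and the H4K16Ac intron share became a call (1.87). Near a TSS only, the H3K9Ac CREB/CRTC share was 0.4513 and lost its call. The density ratio of H3K9Ac was 2.402 over single peaks. The settings restricted to loci shorter than 600 bp, near a TSS only or with a peak in every run were chosen after the data were seen. No paired analysis was possible because the tables name no library. Chromosome 4 holds few H4K16Ac loci, so its shares have wide intervals, and runs may hold the same peak more than once.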
